A study of Homo sapiens with 2 samples.

Results

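The genes described here are AREG, JUN, JUNB, DUSP5 and EPHA4, 5 of the 2007 genes in a deposited comparison of HT-29 cells with and without knockdown of the adhesion receptor GPR126. They were taken by symbol: an epidermal growth factor (EGF) receptor ligand, a pair of AP-1 transcription factor subunits, a phosphatase of the kinase ERK and an ephrin receptor. They were picked because earlier results of these same data showed them higher in the knockdown library, so the values below are a description and carry no test. HT-29 is a human colon adenocarcinoma line with epithelial morphology, known to carry an activating BRAF mutation. The GPR126 knockdown group was 1 library of HT-29 cells with GPR126 targeted by RNA interference. The scramble group was 1 library of HT-29 cells with a scramble control. With 1 library a group, differences are between libraries, and every interval below is a 95% counting interval that leaves out variation between cultures.

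The knockdown library held 6010192 reads and the scramble library 5753320, as implied by the normalised values that the authors deposited. GPR126 itself had 2 knockdown reads and 68 scramble reads, so it was 35.5-fold lower (9.46 to 299) in the library labelled as the knockdown. The table holds only genes that differed at least 2-fold by the authors' own values, with a deposited FDR of at most 9.99e-04. A gene with few reads could thus be left out though it differed by 2-fold. From the counts, 32.9% of the listed genes were at least 2-fold higher in the knockdown library and 66.4% lower by as much. None of 11 colon epithelial, 5 leukocyte and 4 endothelial marker genes was among the listed genes, so the identity of the line could not be checked. Of 5 fibroblast markers, COL1A1 was listed, with 227 knockdown and 83 scramble reads, and its part in the results was not tested.

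As background, EGF receptor ligands such as amphiregulin are made as membrane precursors and released by the protease ADAM17, after which receptor activation runs through RAS, RAF, MEK and ERK. ERK and the related kinase JNK induce a fast set of genes, among them those of AP-1, a dimer of JUN and FOS family proteins that binds DNA. Part of that set closes the loop: some dual specificity phosphatases (DUSPs) strip the activating phosphates from ERK. Eph receptors, which bind ephrins on neighbouring cells, include members whose transcripts follow ERK output.

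All 5 genes were higher in the knockdown library, and for all 5 the whole counting interval lay above 2-fold, as it did for 16.4% of listed genes. JUN, DUSP5 and EPHA4 were more than 4-fold higher, against 8.27% of listed genes. Since the genes were chosen from this contrast, nothing is read from these counts. The median log2 ratio of the 5 was 2.36, beside 1.48 over the 660 listed genes at least 2-fold higher and -1.16 over all 2007. The value of 2.36 is that of EPHA4, which had 45 and 8 reads. Of the 5, JUNB alone, at 1.41, lay below 1.48. More cells that express a gene and more RNA per cell cannot be told apart in such libraries.

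**Figure D1:**
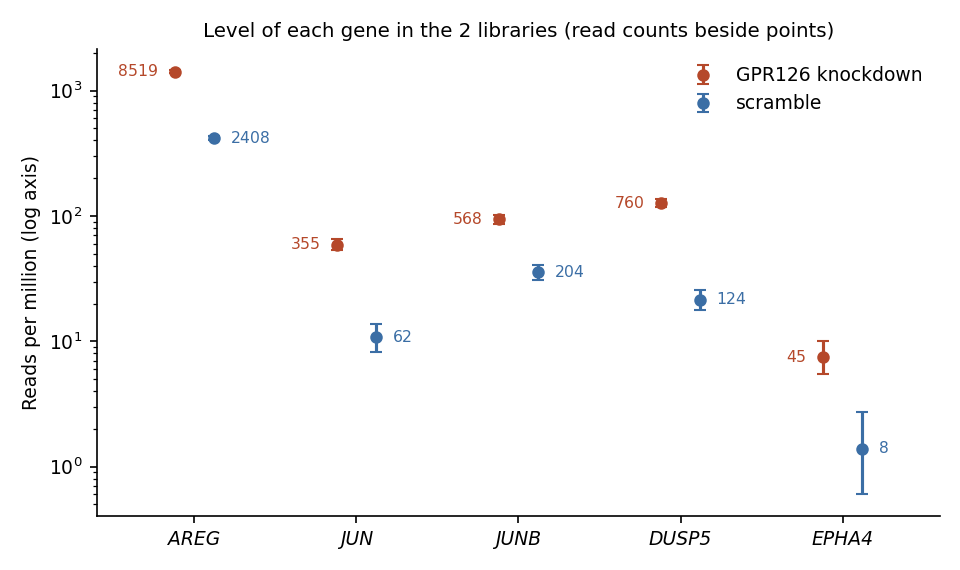
Level of each gene in reads per 1e6 library reads (log axis) in the GPR126 knockdown library and the scramble library; bars are exact 95% Poisson intervals and the numbers are read counts. The knockdown point lies above the scramble point for each gene, and the bars are widest for EPHA4, which had 45 and 8 reads.

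AREG encodes amphiregulin, a ligand that binds the EGF receptor. It had 8519 reads in the knockdown library and 2408 in the scramble library, or 1417 and 419 reads per 1e6 library reads (RPM). The counting intervals of these levels were 1387 to 1448 and 402 to 436 RPM. The fold was 3.39 (3.24 to 3.54), the narrowest interval of the 5 genes. In rank by reads AREG was place 8 of 2007 listed genes in the knockdown library and place 58 in the scramble library. Its gain of 999 RPM was place 6 of 2007. Among the genes ahead of it were the elongation factor gene EEF1A1, the ribosomal protein genes RPS18 and RPL26, and S100A6, which had larger gains at smaller folds of 2.07 to 2.68. AREG alone made up 2.51% of the RPM gained over the 668 listed genes with a higher knockdown level, and the other 4 genes together 0.548%.

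Of the other genes in a list of 15 EGF family ligands and shedding factors, TGFA and HBEGF were listed, and 12 were not. TGFA, which encodes transforming growth factor alpha, had 547 knockdown and 160 scramble reads and was 3.27-fold higher (2.74 to 3.93). HBEGF, the heparin-binding ligand, had 96 knockdown and 38 scramble reads and was 2.42-fold higher (1.64 to 3.62). Besides AREG, which was chosen as higher, TGFA and HBEGF were thus higher too. Of all listed genes 32.9% were at least 2-fold higher. All 3 code for ligands of the EGF receptor itself. Because library totals cancel within a library, the mix of the 3 can be compared without scaling. AREG took 93.0% (92.4 to 93.5) of their reads in the knockdown library and 92.4% (91.3 to 93.4) in the scramble library, and these exact binomial intervals overlapped. EREG and EPGN, neighbours of AREG on chromosome 4, and the sheddases ADAM10 and ADAM17 were not listed. None of 13 ERBB receptors and adaptors, EGFR included, was listed. A gene that is not listed has no value here.

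JUN encodes c-Jun, the AP-1 subunit whose activity JNK raises by phosphorylation. It had 355 knockdown and 62 scramble reads, or 59.1 (53.1 to 65.5) and 10.8 (8.26 to 13.8) RPM, and was 5.48-fold higher (4.18 to 7.30). JUNB, a relative with weaker transactivation, had 568 knockdown and 204 scramble reads, or 94.5 (86.9 to 102.6) and 35.5 (30.8 to 40.7) RPM. It was 2.67-fold higher (2.27 to 3.14). JUN thus had fewer reads than JUNB in both libraries but the larger fold, and the ratio of the JUN fold to the JUNB fold was 2.06 (1.503 to 2.81), a value free of library scaling. Among the 660 genes at least 2-fold higher JUN was place 94 by fold and JUNB place 354.

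The remaining family member JUND was listed too, with 366 knockdown and 162 scramble reads and a 2.16-fold higher level (1.79 to 2.62). The make-up of the JUN family differed between the libraries. JUN took 27.5% (25.1 to 30.1) of the family's reads in the knockdown library and 14.5% (11.3 to 18.2) in the scramble library. JUND took 28.4% (25.9 to 30.9) in the knockdown library and 37.9% (33.2 to 42.6) in the scramble library. For these genes the intervals did not overlap. JUNB took 44.1% (41.3 to 46.8) in the knockdown library and 47.7% (42.8 to 52.5) in the scramble library, and there they did.

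Of 14 AP-1 subunits and partners 5 were listed, 4 higher and 1 lower. The 4 include JUN and JUNB, which were chosen as higher. ATF3, a stress-induced partner that can dimerise with JUN, had 106 knockdown and 10 scramble reads and was 10.1-fold higher (5.31 to 21.8). BATF3, a basic leucine zipper partner of JUN proteins, had 9 knockdown and 37 scramble reads and was 4.29-fold lower (2.04 to 10.1). No FOS family gene (FOS, FOSB, FOSL1, FOSL2) was listed, so the usual dimer partners of JUN have no value here. On the kinase side, MAP2K4, an upstream activator of JNK, had 94 knockdown and 215 scramble reads and was 2.39-fold lower (1.87 to 3.08). The JNK scaffold gene MAPK8IP1 had 3 knockdown and 22 scramble reads and was 7.66-fold lower (2.30 to 39.98). These were the 2 listed genes of 9 in the JNK branch, and most listed genes (66.4%) were lower by at least 2-fold too.

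**Figure D2:**
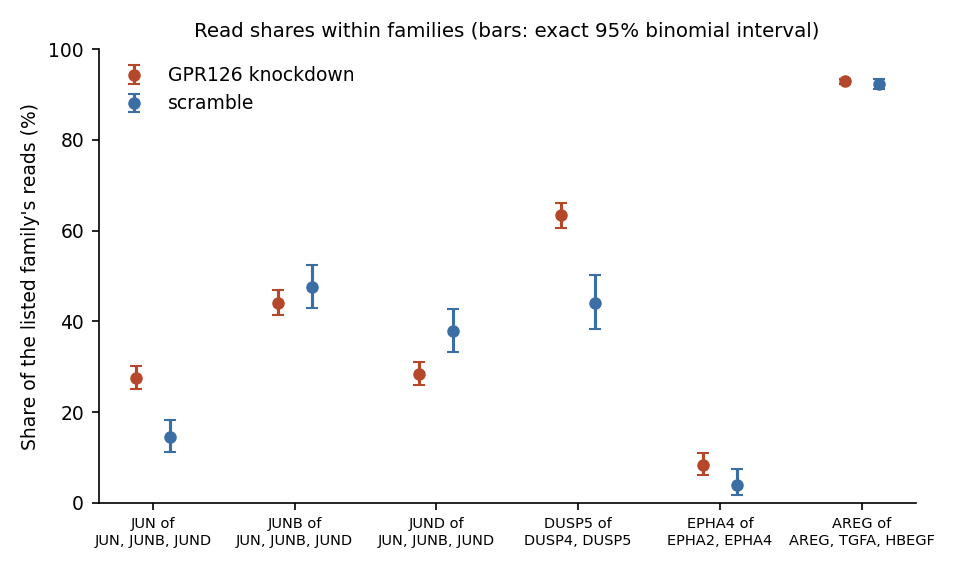
Share of reads (%) that each gene took among the listed genes of its family, in the GPR126 knockdown library and the scramble library; bars are exact 95% binomial intervals. The knockdown share lies higher for JUN, DUSP5 and EPHA4 and lower for JUND and JUNB, with overlapping bars for EPHA4 and JUNB. AREG, whose bars also overlap, stays at 93.0% and 92.4%.

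Promoter sequences, from RefSeq on build GRCh38.p14, were matched for 4 of the 5 genes: AREG, JUN, JUNB and EPHA4. Each runs from 250 bases before the annotated start to 50 after it. AREG and JUN, the cAMP-inducible ligand gene and the AP-1 gene known to be bound by JUN and ATF proteins, carried a match to TGACNTCA in nearly the same place, and these stretches are shown because no other promoter of the 4 had one. The match began 65 bases upstream of the start in AREG and 67 bases upstream in JUN. In capitals are the matched letters, within the bases from 80 to 51 upstream, at chr4:74445056-74445085 on the plus strand for AREG and chr1:58784098-58784127 on the minus strand for JUN.
AREG: cccacggccgggcctTGACGTCAtgggctg
JUN: gaaggccttggggTGACATCAtgggctatt
The AREG match is the consensus cAMP response element TGACGTCA, and the JUN match has the letters TGACATCA. On either strand TGACNTCA occurred in 7.97% of 27305 promoters, 1 per gene. It occurred in 6.63% of the 513 promoters matched to genes at least 2-fold higher, AREG and JUN included. Among the 1114 matched to genes at least 2-fold lower it occurred in 5.30%. TGACGTCA, which TGACNTCA includes, occurred in 1.98% of all promoters. In those of the higher genes, AREG included, its share was 4.09%, and in those of the lower genes 3.32%.

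AREG and JUNB also had a TATAAA match close to the start, beginning 29 bases upstream in AREG and 31 bases upstream in JUNB. It is shown in capitals within the bases from 45 to 16 upstream, at chr4:74445091-74445120 and chr19:12791441-12791470, both on the plus strand.
AREG: ccctcccggctgagccTATAAAgcggcagg
JUNB: gctgactagcgcggTATAAAggcgtgtggc
TATAAA occurred on either strand in 11.95% of all promoters, in 8.97% of those of the higher genes and in 4.31% of those of the lower genes. GGGCGG, the GC box core, was matched in AREG, JUN and EPHA4 and in 44.6% of all promoters, but in 70.6% of those of the higher genes and 70.6% of those of the lower genes. TGANTCA, the classical AP-1 element, and the serum response element (CArG box) had no match in the 4 windows, and occurred in 7.76% and 1.29% of all promoters. A match is a string of letters in this window and says nothing of binding in these cells.

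DUSP5 encodes a nuclear phosphatase specific for ERK, itself induced by ERK activity. It had 760 knockdown and 124 scramble reads, or 126 (118 to 136) and 21.6 (17.9 to 25.7) RPM. The fold, 5.87 (4.85 to 7.15), was the highest of the 5, at place 84 among the 660 higher genes. It exceeded the JUN fold by a ratio of 1.07 (0.77 to 1.49) only, and the EPHA4 fold by a ratio of 1.09 (0.50 to 2.37), so the order of DUSP5, JUN and EPHA4 is within counting error. Of 10 MAPK phosphatases DUSP4 was the other one listed. DUSP4, also a nuclear phosphatase of MAP kinases, had 438 knockdown and 157 scramble reads and was 2.67-fold higher (2.22 to 3.23). DUSP5 took 63.4% (60.6 to 66.2) of the reads of this pair in the knockdown library and 44.1% (38.2 to 50.1) in the scramble library, and these intervals did not overlap. The scramble interval includes equal shares, so which of the pair had more reads there is within counting error. DUSP6, the cytoplasmic ERK phosphatase, and DUSP1 were not listed. Outside the list of 10, DUSP12 had 168 knockdown and 369 scramble reads and DUSP23 had 75 and 169, so both were lower.

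EPHA4 encodes a receptor tyrosine kinase that binds ephrins of both classes. It had 45 knockdown and 8 scramble reads, or 7.49 (5.46 to 10.02) and 1.39 (0.60 to 2.74) RPM. The fold of 5.38 carried an interval of 2.51 to 13.2, so its size is poorly fixed, and by reads EPHA4 was place 1542 of 2007 in the knockdown library and place 1925 in the scramble library. Among listed higher genes with 8 scramble reads the fewest knockdown reads were 38 (LEMD1), so at this depth only large folds are listed. Of 22 Eph receptors and ephrins EPHA2 was the other one listed. EPHA2, a receptor whose transcript is known to follow ERK activity, had 492 knockdown and 200 scramble reads and was 2.35-fold higher (1.99 to 2.79). EPHA4 took 8.38% (6.18 to 11.1) of the reads of this pair in the knockdown library and 3.85% (1.67 to 7.44) in the scramble library. These intervals overlapped, which does not show that the shares were equal.

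**Figure D3:**
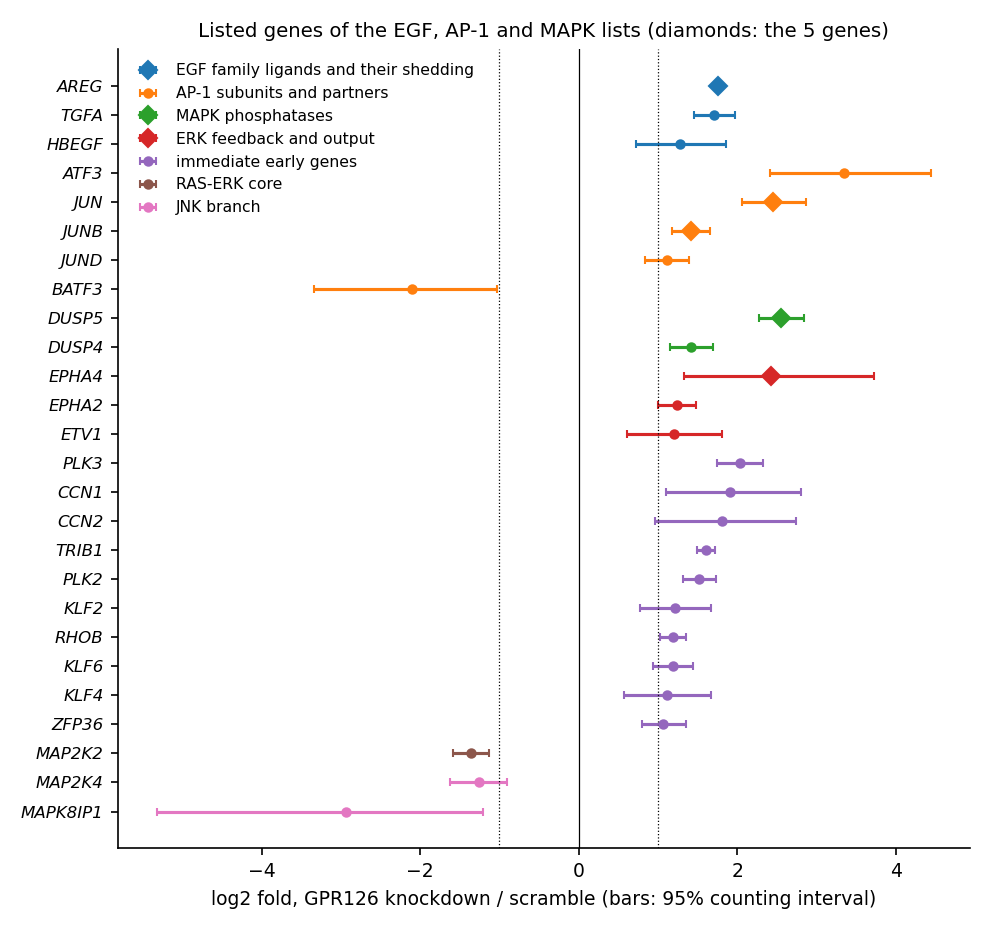
Log2 fold of the GPR126 knockdown over the scramble library for listed genes of the EGF, AP-1, MAPK and immediate early lists, with 95% counting intervals, each gene drawn once and MAFF, with no scramble read, left out; dotted lines mark 2-fold. The 5 diamonds lie right of the upper line, and BATF3, MAP2K2, MAP2K4 and MAPK8IP1 lie on the lower side.

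Further ERK feedback and output genes were few. Of 16, EPHA4, EPHA2 and ETV1 were listed and all 3 were higher, EPHA4 having been chosen as higher. Of all listed genes 32.9% were at least 2-fold higher. The ETS family factor ETV1 had 84 knockdown and 35 scramble reads and was 2.30-fold higher (1.53 to 3.51). The Sprouty and SPRED inhibitors, the receptor inhibitor ERRFI1, ETV4, ETV5 and CCND1 were among the 13 that were not listed. Of 16 genes of the RAS to ERK core, MAP2K2 was listed, and it was lower, beside 66.4% of all listed genes at least 2-fold lower. MAP2K2, which encodes the ERK kinase MEK2, had 223 knockdown and 545 scramble reads and was 2.55-fold lower (2.18 to 2.997).

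Immediate early genes, which growth factors and stress induce within minutes, made up the largest listed group. Of 32 genes 14 were listed and all 14 were at least 2-fold higher, beside 32.9% of all listed genes. Among the 14 are ATF3 and also JUN and JUNB, which were chosen as higher in this contrast. The list was drawn up with earlier results of these data known, so the count is a description only. The median log2 ratio of the 14 was 1.56, close to the 1.48 of the 660 higher genes. MAFF, a small MAF factor, had 16 knockdown reads and no scramble read, so it was at least 5.11-fold higher if 3 reads are taken as the most that a count of 0 allows in the scramble library. The lower limit of its counting interval, found as for the other genes, was 3.69-fold. The median of the 14 was the same with MAFF at 5.11-fold. The kinase gene PLK3 had 533 knockdown and 125 scramble reads and was 4.08-fold higher (3.35 to 5.0002). CYR61 (CCN1) and CTGF (CCN2), secreted matricellular proteins, were 3.77-fold (2.15 to 6.99) and 3.51-fold (1.955 to 6.69) higher. TRIB1, a pseudokinase that binds MEK1, had 2548 knockdown and 801 scramble reads and was 3.05-fold higher (2.81 to 3.30). PLK2 was 2.87-fold higher (2.48 to 3.33). KLF2, RHOB, KLF6, KLF4 and ZFP36, of which ZFP36 encodes a protein that promotes decay of AU-rich transcripts, were between 2.10-fold and 2.32-fold higher. FOS, EGR1, IER2 and NR4A1 were among the 18 that were not listed.

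Over the 9 lists together, 138 genes were looked up and 27 were listed, 23 of them 2-fold or more higher and 4 lower. Without the 5 genes themselves, 18 of 22 were higher, or 81.8%, beside 32.9% of all listed genes. Much of this count came from the immediate early list, where all 14 listed genes were higher. No listed gene of the RAS to ERK core or the JNK branch was higher. The lists were drawn up with earlier results of these data known, so the share is given as a count only.

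**Figure D4:**
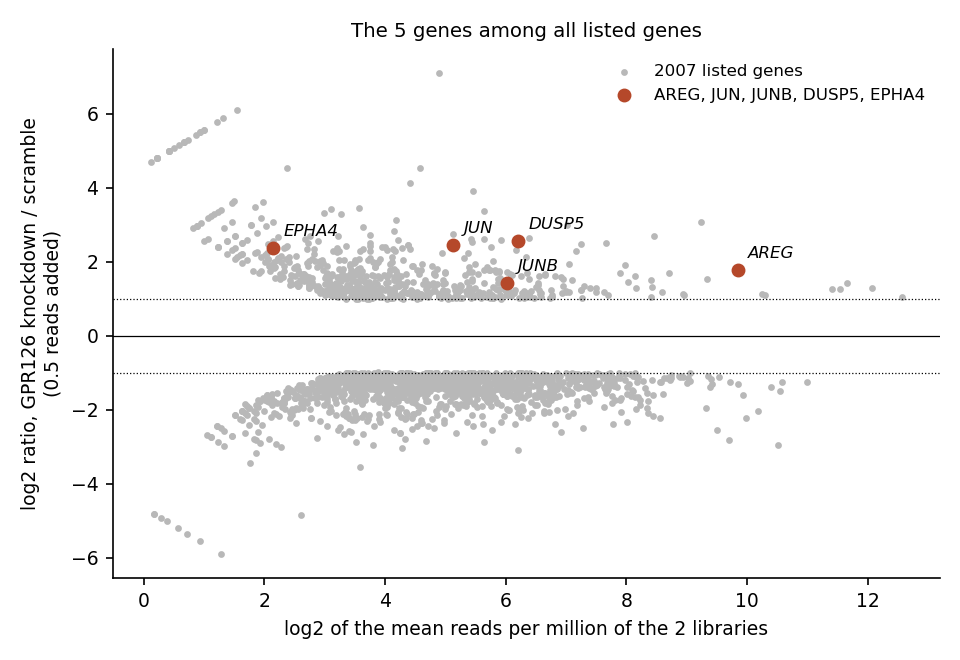
Log2 ratio of the GPR126 knockdown over the scramble library (0.5 reads added) against the log2 mean level in RPM, for all 2007 listed genes in grey and the 5 genes in colour. The empty band between the dotted lines is the 2-fold limit of the deposited table. AREG lies far to the right, and EPHA4 at the left, where the listed genes have larger ratios. The table also holds no gene with a deposited FDR above 9.99e-04, which bears on genes with few reads.

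For a comparison of levels between genes, RPM values were divided by the length of the longest coding transcript in GENCODE 29. On this scale AREG (1240 bases) had 1143 and 338 RPM per kilobase in the knockdown and scramble libraries. JUNB (1820 bases) had 51.9 and 19.5, DUSP5 (2557 bases) 49.5 and 8.43, and JUN (3540 bases) 16.7 and 3.04. EPHA4 (6346 bases) had 1.18 and 0.22. The order of the 5 was the same in both libraries, but in the knockdown library the intervals of JUNB (47.7 to 56.4) and DUSP5 (46.0 to 53.1) overlapped. All other neighbours in this order were separated in each library. This scale assumes counts that grow with transcript length, and the sources used here do not give the counting method.

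Overlap with other annotated transcripts was looked at by exact shared stretches only. The aligner and counting tool are not given, so how many reads came from other transcripts is not known. No stretch of 36 bases of the AREG, JUN or EPHA4 transcript occurred in a transcript of another GENCODE 29 gene. DUSP5 shared 3 of 2522 such stretches, all with its pseudogene DUSP5P1. JUNB shared 12.5% of its stretches with HOOK2, which overlaps it on the opposite strand, and whether counting used the strand is not given, so the JUNB count is less certain than the others. HOOK2 was not listed. EPHA4 lies over a pseudogene and an antisense gene on the opposite strand. Some older gene tables carry AREGB, now a synonym of AREG, as a separate gene, and how reads would have been divided between them is not given.

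By the ontology terms in the deposited table, JUN and JUNB shared 12 terms. With the term for sequence-specific transcription factor activity they joined 98 other listed genes, 56 of them (57.1%) at least 2-fold higher, beside 32.9% of all listed genes. With the term for response to drug they joined 25 others, of which 7 (28.0%) were higher, and with that for regulation of cell cycle 6 others, of which 1 was higher. With the term for response to cAMP they joined 4 others, of which 2 were higher. JUN and AREG shared the term for positive regulation of DNA replication, with 3 other genes, of which 1 was higher. The wide terms nucleus (JUN, JUNB, DUSP5) and membrane (AREG, EPHA4) covered 723 and 369 other listed genes, of which 25.2% and 33.1% were higher.

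Genes were also ranked by closeness to each member, as the distance of log2 RPM over the 2 libraries. Among the nearest to AREG were GAS5 at a distance of 0.90 and RPL9 at 0.98. Nearest to JUN were GPR110 at 0.21, LYRM1 and ANKRA2, and nearest to JUNB were AMOTL2 at 0.13, CEBPG and CYFIP2. DUSP5 had VEGFA at 0.16, LAMB3 and DDIT3 as neighbours, and EPHA4 had TJP3 at 0.065, COL4A5 and ZNF204P. With 2 libraries such likeness rests on 1 level and 1 ratio.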

How the data were processed

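RNA was taken from HT-29 cells and sequenced, 1 scramble and 1 GPR126 knockdown library. The authors deposited 1 table of 2007 selected genes with whole-number counts per library. The authors' column headed TPM is an RPM value: count over 1 library total, times 1e6, with a count of 0 entered as 0.01. The authors' deposited log2 ratio, p-value and FDR were not used as evidence: the FDR in the authors' deposited table was 1.75e-12 for DUSP5 but 0 for JUN, which had fewer reads and a smaller ratio. The smallest absolute deposited log2 ratio was 1 and the largest deposited FDR 9.99e-04, so both bear on which genes are listed. The sources used here give no aligner, counting tool, strand setting, annotation or genome build.

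Log2 ratios were computed from counts scaled to library totals with 0.5 reads added. Folds used no pseudocount, with Clopper-Pearson 95% intervals; levels had exact Poisson intervals, and ratios of folds a normal approximation on the log scale. They cover counting error only, and overlap of intervals is not a test of a difference. No gene fell under a floor of 1 RPM in its higher library, and no test was run. The calculation was tested on simulated data. Members and lists were chosen with earlier results of these data known. Named were the members, up to 8 listed genes a list by size of ratio (further immediate early genes were added after their values were seen) and the 3 genes nearest each member. Some genes that this rule takes are left out. Identifiers matched RefSeq for 2004 of 2007. Alternatives covered pseudocount, scaling, floor, fold limit and unit. Software was Python 3.11.15 with scipy 1.17.1, numpy 2.4.6, pandas 2.3.3 and, for plots, matplotlib 3.10.9.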

Additional observations from a re-analysis of the deposited data

How the results depend on the processing

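No paired analysis was possible because there was 1 library a group, which also means that none could be left out. All 25 values of the 5 genes under the alternatives stayed positive, and 17 stayed inside the gene's counting interval; since the table is limited to 2-fold, little could reverse. Adding 0.05 or 5 reads, or using the authors' RPM values, left every gene inside its interval. Scaling on the listed genes took away log2 shifts of -1.16 (their median ratio) or -0.71 (their upper quartile), most of them being lower. They gave log2 ratios of 2.92 and 2.47 for AREG, 3.60 and 3.15 for JUN, 2.57 and 2.12 for JUNB, and 3.71 and 3.25 for DUSP5, in that order of scaling. They left 112 and 292 listed genes at least 2-fold lower, against 1332 with library totals. With a 4-fold limit 166 genes were higher and 164 lower. Depth limits EPHA4 most, with 8 scramble reads: adding 5 reads gave it a log2 ratio of 1.88 against 2.36.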

Other observations

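In the AREG and JUN promoters the TGACNTCA match was followed directly by the same 6 bases, tgggct, an observation made after the sequences were seen. Base by base at equal distance from the start, the windows printed for AREG and JUN shared 6 of 30 bases, the matches lying 2 bases apart. Of 27305 promoters searched on either strand, 2, those of AREG and JUN, held TGACNTCA followed by tgggct. The string was taken from these promoters, so both had to hold it and nothing is read from its rarity. TGACNTCA beginning between 90 and 40 bases upstream was found in 2.85% of all promoters. Genes at least 2-fold higher had it in 3.12% (16 of 513, AREG and JUN included) and those at least 2-fold lower in 1.53%. TATAAA beginning between 40 and 20 bases upstream, as in AREG and JUNB, was found in 3.10% of all promoters. Higher genes had it in 5.26% (27 of 513, AREG and JUNB included) and lower genes in 1.53%. Over the whole promoter windows, on either strand, TATAAA was instead less common in higher genes (8.97%) than in all promoters (11.95%). These shares are descriptions of the letters in the windows.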
